A study of Saccharomyces cerevisiae with 24 samples.

Results

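Messenger RNA levels of 5 genes that drive and end mitosis in budding yeast, CLB1, CLB2, CDC5, CDC20 and SWI5, were followed after galactose was added to 2 strains of Saccharomyces cerevisiae. The genes were chosen by name, and each was read from the probe set to which the platform annotation gives that symbol. Each had 1 probe set that names no other gene, so they account for 5 of 9335 probe sets and for 5 of the 5656 genes measured. Their locus tags are YGR108W for CLB1, YPR119W for CLB2, YMR001C for CDC5, YGL116W for CDC20 and YDR146C for SWI5.

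The strain YSS37 is labelled wild-type and carries IFH1 with a 13myc tag and the TRP1 marker, genotype IFH1-13myc-TRP1, MATa. The strain YSS89 carries the same tagged gene with its own upstream activating sequence replaced by HIS3 and that of GAL1, genotype UASGAL1-IFH1-13myc-TRP1, MATa. IFH1 encodes a coactivator of ribosomal protein genes. Cells of both strains were in log phase at 30°C in YPLG medium before galactose was added to 2%, and no step that brings cells to the same cell cycle stage is labelled. Samples of YSS37 were taken at 0, 30 and 60 min. Those of YSS89 were taken at 0, 20, 30, 40 and 60 min. The 8 groups hold 3 biological replicates each, 24 arrays in all. The labels give the times without a unit, and minutes are assumed. Every group received galactose after time 0, so galactose and elapsed time cannot be told apart. The labels do not say how many clones stand for each strain.

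The B-type cyclins Clb1 and Clb2 bind the kinase Cdk1 (Cdc28) and carry the cell into mitosis, with Clb2 as the major form. Their genes belong to the CLB2 cluster, a group transcribed late in the cycle by Mcm1, the forkhead protein Fkh2 and Ndd1, and CDC5, CDC20 and SWI5 are in the same cluster. The polo kinase Cdc5 acts in mitotic entry and exit, Cdc20 activates the anaphase-promoting complex that destroys securin and mitotic cyclins, and Swi5 is a transcription factor that turns on genes as cells leave mitosis for G1. In bulk RNA from unsynchronised cultures, fewer cells in mitosis and less RNA per cell cannot be told apart.

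Some arrays stood apart, and strain was tied to array handling. The instrument files record 4 hybridization rounds of 8, 7, 7 and 2 arrays. The first held all YSS37 arrays but replicate c at 60 min, and the fourth consisted of the YSS89 time 0 replicates b and c. The 25S rRNA control was 313 and 90.9 on this pair and 560 to 1056 on the other 22 arrays. The recorded chip lot of the 9 YSS37 arrays is found on no YSS89 array, although it differs by 1 character from that of 5 of them, so strain and lot cannot be told apart in direct comparisons of the strains. IFH1 in YSS89 was 26.4 ± 7.1 (SD, n = 3) at time 0 and 572 at 60 min, and in YSS37 it was 20.8 and 38.2, which fits the labels. The 6 a-cell genes summed to 738 to 1046 on the YSS37 arrays and 761 to 1702 on the YSS89 arrays, and the 4 alpha-cell genes to 30.9 to 47.6 and 32.0 to 55.8.

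Across all arrays CLB1 had the widest range of the 5 genes. Values below are deposited intensities on a linear scale, arbitrary units that were scaled to a common level on each array. Intensities of different genes were not ranked, since probe sets differ in brightness. CLB1 was highest in YSS37 at 60 min and lowest in YSS89 at 60 min, and its 8 group means spanned 1.43 on the log2 scale, with a spread within groups of 0.26 (SD). CLB2, CDC5 and SWI5 had their highest mean in YSS89 at 40 min, and CDC20 had similar means in YSS89 at time 0 (78.5) and at 40 min (76.8), the highest of its 8. On the log2 scale the group means spanned 1.13 for CDC5, 0.89 for SWI5, 0.75 for CLB2 and 0.69 for CDC20, with spreads within groups of 0.17, 0.20, 0.26 and 0.22.

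**Figure D1:**
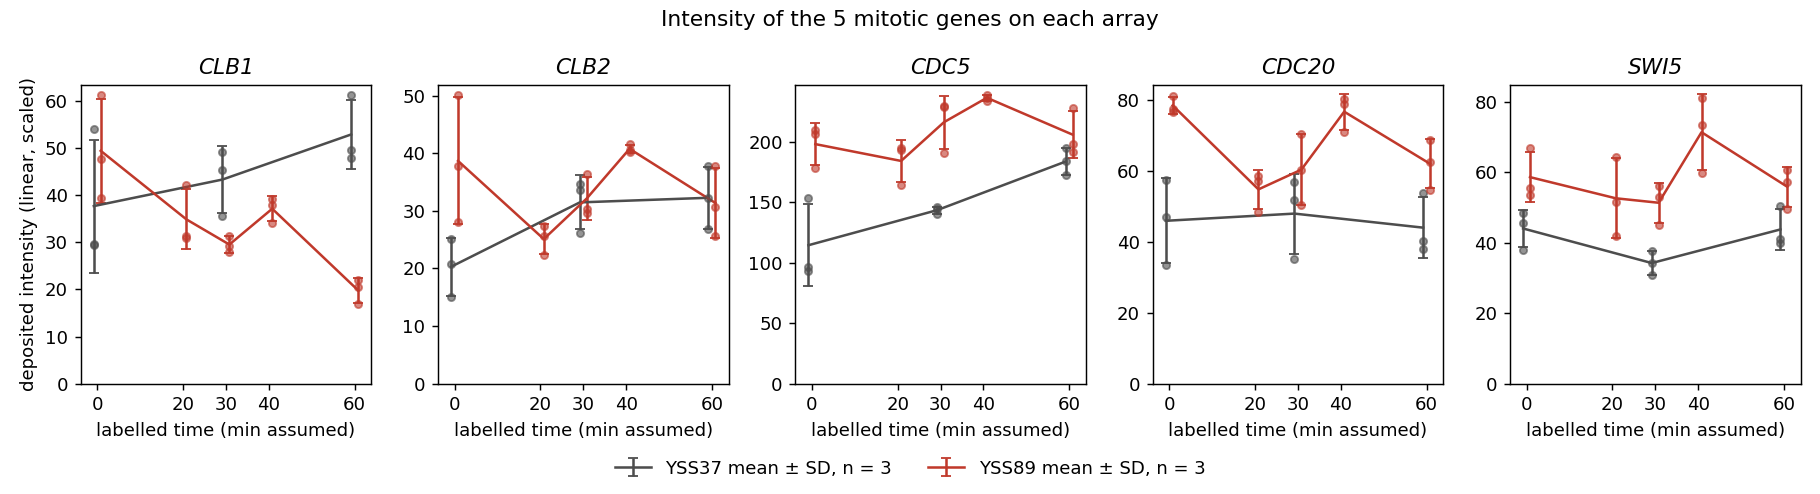
Deposited intensity (linear scale, y axis from 0) of the 5 genes on each of the 24 arrays against labelled time, with points for arrays and lines and bars for the mean ± SD of 3 arrays, YSS37 in grey and YSS89 in red. CLB1 falls to between 16.9 and 22.0 in YSS89 at 60 min, below every YSS37 array, while CLB2, CDC5 and SWI5 have their highest means in YSS89 at 40 min.

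CLB1 was called higher in no contrast over time and fell in YSS89. In YSS37 its 3 arrays, replicates a to c, read 54.0, 29.5 and 29.6 at time 0, 49.2, 35.5 and 45.3 at 30 min and 61.2, 49.5 and 48.0 at 60 min. In YSS89 they read 61.2, 47.7 and 39.4 at time 0, 31.4, 42.2 and 31.0 at 20 min and 29.3, 27.9 and 31.4 at 30 min. At 40 min they read 38.0, 34.2 and 39.2, and at 60 min 16.9, 22.0 and 20.6. All 3 arrays of YSS89 at 60 min lay below each of the other 21, and the strains overlapped at time 0.

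The change of CLB1 in YSS89 from time 0 to 60 min was -1.11 (log2, 95% interval -1.53 to -0.69, 2.16-fold, adjusted p = 0.000166 by limma with Benjamini-Hochberg adjustment over all genes). Log2 values here are fitted differences after quantile normalization, and a gene is said to rise or fall only at an adjusted p under 0.05. At 30 min CLB1 was also lower (-0.54, adjusted p = 0.0325), and at 20 and 40 min the differences of -0.32 and -0.27 did not pass (adjusted p = 0.301 and 0.280). CLB1 was 1 of 5 genes called at 60 min, in a contrast where 23.9% of all genes were called higher and 19.8% lower. It was the 1 gene of the 5 to fall at 30 min, when 22.4% of all genes were called higher and 23.6% lower. At 20 min none of the 5 was called (7.60% of all genes higher, 10.4% lower). The changes in YSS89 share the time 0 arrays. Without the pair of time 0 arrays of the fourth round the fall at 60 min was -1.47 (adjusted p = 0.000398), and between the replicates a, which were hybridized in the second round, the difference was -1.65, a value from 1 array against 1 with no replicate check. The fall at 30 min was -0.90 without them (adjusted p = 0.0146). It missed the threshold in 5 of the 6 fits that left out 1 array, with replicate a, b or c at 30 min left out (adjusted p = 0.0643, 0.0932 and 0.05004) or with replicate a or b at time 0 left out (0.177 and 0.0636). It also missed the threshold when only the groups compared were fitted (0.0524). The a-cell genes moved in the same contrast at 60 min, 5 of 6 called higher with a median of 0.58, while 0 of the 4 alpha-cell genes were called. Without the fourth-round arrays 0 of the 6 a-cell genes were called higher and 1 lower. Their part in the fall of CLB1 was not tested.

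CLB1 in YSS89 was also read step by step, and the steps were not compared with each other. The step from 40 to 60 min was -0.84 (adjusted p = 0.0298), the 1 called step among the 5 genes, when 0.796% of all genes were called higher and 1.29% lower. Leaving out any 1 of the 6 arrays of that step ended the call, with adjusted p from 0.0616 to 0.132. All of the other 4 genes had lower means at 60 than at 40 min too, by -0.25 for CDC5 to -0.38 for CLB2, and none passed (adjusted p = 0.396 to 0.541). None of the 5 genes was called in the step from 20 to 30 min (9% of all genes higher, 12.4% lower), from 30 to 40 min (3.59% and 1.75%) or in YSS37 from 30 to 60 min (0.636% and 2.26%).

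In YSS37 the mean of CLB1 at 60 min was higher than at time 0 by 0.40 (95% interval -0.02 to 0.82, adjusted p = 0.119), and the arrays overlapped. Replicate a at time 0 was the brightest of its group for CLB1, CLB2, CDC5, CDC20 and SWI5. Without that array the change of CLB1 was 0.67 and passed (adjusted p = 0.00615).

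The change of CLB1 from time 0 to 60 min differed between the strains, a contrast called the difference of responses below. Its change to 60 min was lower in YSS89 than in YSS37 by -1.51 (95% interval -2.10 to -0.92, adjusted p = 0.00159), where 5.45% of all genes were called higher and 8.42% lower. Of the 5 genes CLB1 was the 1 called. The scaling moved the split of calls over all genes, from 308 higher and 476 lower to 208 and 644 with values as deposited and to 679 and 307 with median centring, and CLB1 stayed at -1.77 and -1.48. Across 26 fits with other settings the difference lay between -1.90 and -1.32, each past the threshold, with adjusted p from 5.8e-05 to 0.0222. No round held all 4 groups of this difference, and with the round as a block it was -1.90 (adjusted p = 0.00752). At 30 min the difference of responses was -0.68 and did not pass (adjusted p = 0.104), and none of the 5 genes was called (6.72% of all genes higher, 11% lower). That value was -0.95 without replicate a of YSS37 at time 0 and then passed (adjusted p = 0.0106).

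Set side by side at the same time, CLB1 was lower in YSS89 by -0.60 at 30 min (adjusted p = 0.0206) and by -1.43 at 60 min (2.69-fold, adjusted p = 4.15e-05), with no overlap of arrays at either time. At time 0 the difference was 0.08 (adjusted p = 0.805). The second round held 1 array of each strain at 60 min, and CLB1 differed between them by -1.53, with no replicate check. No round held both strains at 30 min, and with the round as a block the difference there was -0.47 and did not pass (adjusted p = 0.440). It also missed the threshold without replicate a or c of YSS37 or replicate b of YSS89 at 30 min (adjusted p = 0.0649, 0.0628 and 0.0655).

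CLB2, the closest relative of CLB1 among the cyclins, was called in none of the 15 contrasts. In YSS37 its arrays read 25.1, 20.8 and 15.0 at time 0, 26.1, 33.6 and 34.7 at 30 min and 26.9, 37.7 and 32.2 at 60 min. In YSS89 they read 37.8, 28.1 and 50.1 at time 0, 22.3, 25.6 and 27.4 at 20 min, 29.6, 30.4 and 36.4 at 30 min, 40.5, 41.6 and 40.2 at 40 min and 30.6, 37.8 and 25.7 at 60 min. In deposited intensity the 3 YSS37 arrays at time 0 lay at or under 25.1, below all arrays of that strain at later times. After normalization they overlapped, with replicate a at 4.94 (log2) at time 0, 4.78 at 30 min and 4.86 at 60 min. The YSS89 arrays at time 0 spread widely. The change in YSS37 was 0.51 at 30 min and 0.49 at 60 min (adjusted p = 0.0716 and 0.0607). The change in YSS89 at 60 min was -0.16 (95% interval -0.58 to 0.27, adjusted p = 0.556). The difference of responses at 60 min was -0.65 (95% interval -1.25 to -0.05, adjusted p = 0.140). This interval overlaps that of CLB1 (-2.10 to -0.92), and whether CLB1 and CLB2 differ in it was not tested.

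Some of these values lay close to the threshold. With values as deposited CLB2 passed in YSS37 at 60 min (0.65, adjusted p = 0.0113) and in the difference of responses (-0.92, adjusted p = 0.0300). Without replicate a of YSS37 at time 0 the change in YSS37 was 0.66 at 60 min (adjusted p = 0.0210) and 0.68 at 30 min (adjusted p = 0.0274). The fall of CLB1 in YSS89 from time 0 to 60 min exceeded that of CLB2 by -0.95 within arrays, and against CDC5, CDC20 and SWI5 the excess was -1.28, -0.83 and -1.13. These are values with no usable test, since an exact permutation test of 3 against 3 arrays cannot go below p = 0.1.

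CDC5, the polo kinase gene, rose in YSS37 and started higher in YSS89. In YSS37 its arrays read 153.7, 93.6 and 96.6 at time 0, 144.6, 140.5 and 145.9 at 30 min and 184.5, 172.4 and 194.9 at 60 min. In YSS89 they read 206.4, 178.4 and 210.2 at time 0, 164.6, 193.7 and 194.9 at 20 min, 191.2, 228.8 and 229.5 at 30 min, 234.1, 239.4 and 236.6 at 40 min and 228.6, 198.1 and 191.8 at 60 min. Every YSS37 array at 60 min lay above every YSS37 array at time 0, and every YSS89 array at time 0 lay above every YSS37 array at time 0.

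The rise of CDC5 in YSS37 at 60 min was 0.71 (95% interval 0.41 to 1.0, 1.63-fold, adjusted p = 0.000471). It was the 1 gene of the 5 called, beside 21.1% of all genes called higher and 20.5% lower. It passed in all 20 other fits, between 0.54 and 0.93, and within the first hybridization round it was 0.66 (adjusted p = 0.00853, 2 arrays against 3). At 30 min CDC5 was 0.37 higher and did not pass (adjusted p = 0.0588), nor did any of the 5 genes (14.4% of all genes higher, 12.4% lower). Without replicate a of YSS37 at time 0, on which CDC5 read 153.7, its changes were 0.60 at 30 min (adjusted p = 0.00079) and 0.93 at 60 min (adjusted p = 3.94e-06). With median centring the split over all genes at 60 min was 942 higher and 1504 lower, against 1195 and 1159.

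In YSS89 CDC5 was called at 40 min (0.42, adjusted p = 0.0202), beside 23.9% of all genes called higher and 21.5% lower. This call ended without the fourth-round arrays (0.38, adjusted p = 0.169) and with values as deposited (0.26, adjusted p = 0.170) or median centring (0.36, adjusted p = 0.0636), and between the arrays of the second round, 1 against 1, the change was 0.36. It also ended without replicate b of YSS89 at time 0 (adjusted p = 0.0748) or at 40 min (adjusted p = 0.0534). At 60 min the change in YSS89 was 0.17 (95% interval -0.13 to 0.47, adjusted p = 0.350), and the difference of responses was -0.54 (adjusted p = 0.0810). That difference passed without replicate a of YSS37 at time 0 (-0.76, adjusted p = 0.00247).

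Before galactose CDC5 and the anaphase activator gene CDC20 were higher in YSS89 than in YSS37. CDC5 differed by 0.71 (95% interval 0.41 to 1.0, adjusted p = 0.00089) and CDC20 by 0.52 (95% interval 0.14 to 0.89, adjusted p = 0.0358). These were 2 of 5 genes, in a contrast where 17.8% of all genes were called higher and 10.2% lower. With values as deposited that split was 1732 higher and 405 lower, with median centring 657 and 1342, against 1004 and 575. CDC20 passed in 10 of 20 other fits, and each of 5 of the 6 fits that left out 1 array ended its call (adjusted p = 0.0647 to 0.206). The exception was the fit without replicate a of YSS37 (0.69, adjusted p = 0.00905). When the groups at time 0 were fitted alone, neither CDC5 (adjusted p = 0.0655) nor CDC20 (adjusted p = 0.123) passed. CLB2 was 0.53 higher and did not pass (adjusted p = 0.0575). That difference was 0.88 with values as deposited (adjusted p = 0.0016), and it also passed without replicate a of YSS37 (0.70, adjusted p = 0.0218), without replicate b of YSS89 (0.73, adjusted p = 0.0171) and when the dimmest 25% of genes were left out (0.53, adjusted p = 0.0408). Without the fourth-round arrays the difference of CDC5 was 0.74 (adjusted p = 0.0346) and that of CDC20 was 0.53 (adjusted p = 0.240). No round held both strains at time 0, and with the round as a block the differences were 0.62 and 0.65 and neither passed (adjusted p = 0.365 and 0.466).

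CDC20 was called in no change over time. In YSS37 its arrays read 57.4, 33.5 and 47.0 at time 0, 56.9, 35.3 and 51.8 at 30 min and 38.0, 53.9 and 40.2 at 60 min. In YSS89 they read 77.6, 76.8 and 81.2 at time 0, 58.7, 57.3 and 48.5 at 20 min, 50.3, 70.5 and 60.4 at 30 min, 79.0, 80.4 and 70.9 at 40 min and 68.7, 62.7 and 54.8 at 60 min. The YSS89 arrays at 20 min all lay below those at time 0, and those at 40 min overlapped them. The changes at 20 and 40 min were -0.39 (adjusted p = 0.136) and 0.03 (adjusted p = 0.914). The change to 60 min was -0.14 in YSS37 (95% interval -0.52 to 0.23) and -0.28 in YSS89 (95% interval -0.66 to 0.09).

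SWI5, the gene for the factor of mitotic exit, differed between the strains at 30 min. In YSS37 its arrays read 48.4, 45.6 and 38.0 at time 0, 30.8, 34.1 and 37.7 at 30 min and 39.9, 50.3 and 41.0 at 60 min. In YSS89 they read 55.5, 53.5 and 66.7 at time 0, 41.8, 51.6 and 64.3 at 20 min, 45.1, 56.0 and 52.8 at 30 min, 73.3, 81.0 and 59.6 at 40 min and 57.3, 60.7 and 49.5 at 60 min. At 30 min every YSS37 array lay below every YSS89 array and below every YSS37 array at time 0. The strain difference at 30 min was 0.51 (95% interval 0.16 to 0.85, adjusted p = 0.0176). With it CDC5 was higher in YSS89 (0.67, adjusted p = 0.000804) and CLB1 lower, so 3 of 5 genes were called at 30 min, beside 23.4% of all genes called higher and 20.0% lower. At 60 min CLB1 was the 1 of 5 called, beside 16.5% and 11.4%.

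No change of SWI5 over time passed. In YSS37 at 30 min it was lower by -0.43 (adjusted p = 0.0607), and in YSS89 at 40 min higher by 0.37 (adjusted p = 0.0729). At 60 min its changes were -0.11 in YSS37 (95% interval -0.45 to 0.23) and 0.02 in YSS89 (95% interval -0.32 to 0.36). The call at 30 min ended with the round as a block (0.49, adjusted p = 0.349) and when replicate a of YSS37 or replicate b or c of YSS89 at 30 min was left out (adjusted p = 0.0841, 0.0660 and 0.0591). It also ended with a replicate block by strain and letter (0.49, adjusted p = 0.0874). With the round as a block the difference of CDC5 at 30 min was 0.51 (adjusted p = 0.256).

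**Figure D2:**
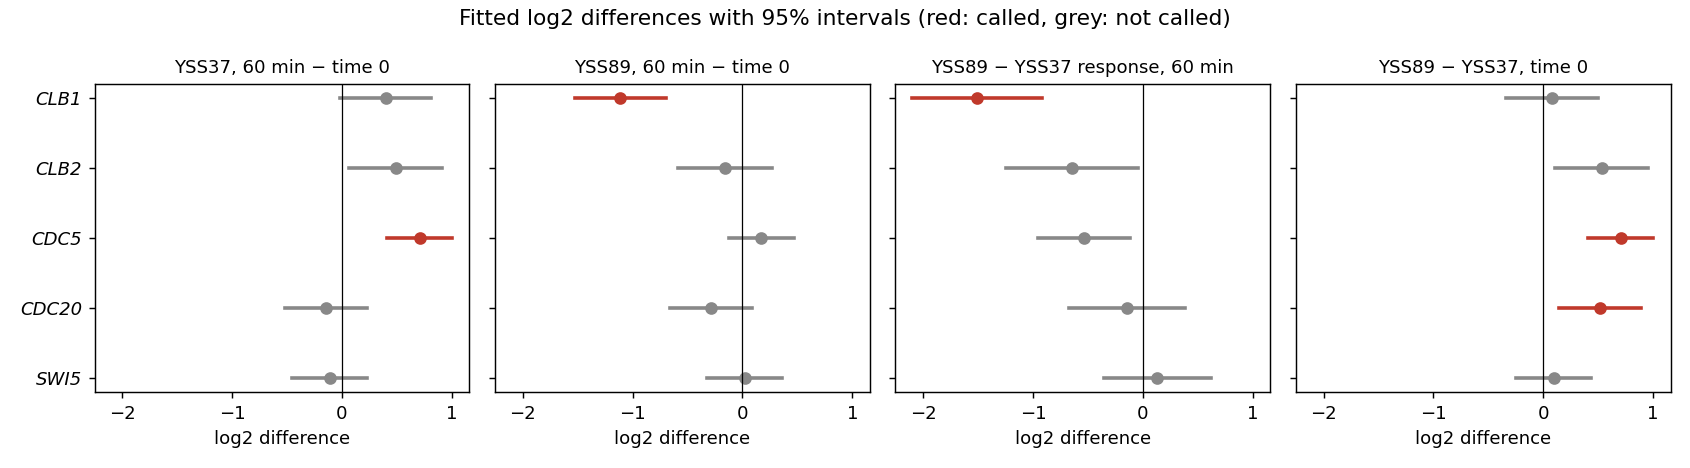
Fitted log2 differences (x axis) of the 5 genes with 95% intervals in 4 contrasts, the changes to 60 min in each strain, their difference and the strain difference at time 0, in red where the adjusted p was under 0.05. CLB1 stands at -1.11 in YSS89 and at -1.51 in the difference of responses, and CDC5 at 0.71 in YSS37.

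CLB1 had the lowest correlations with the other genes of the 5. Over the 24 arrays CLB2, CDC5, CDC20 and SWI5 correlated with each other at Pearson r of 0.36 (CLB2 with CDC20) to 0.60 (CLB2 with CDC5). CLB1 correlated with them at 0.10 (CLB2), -0.16 (CDC20), -0.27 (CDC5) and -0.31 (SWI5). The arrays share strain, time and round, so these values are descriptions. After the group means were taken out, CLB2 and SWI5 stood at 0.74 and CLB1 and CDC5 at 0.50, where differences between replicates are all that is left.

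**Figure D3:**
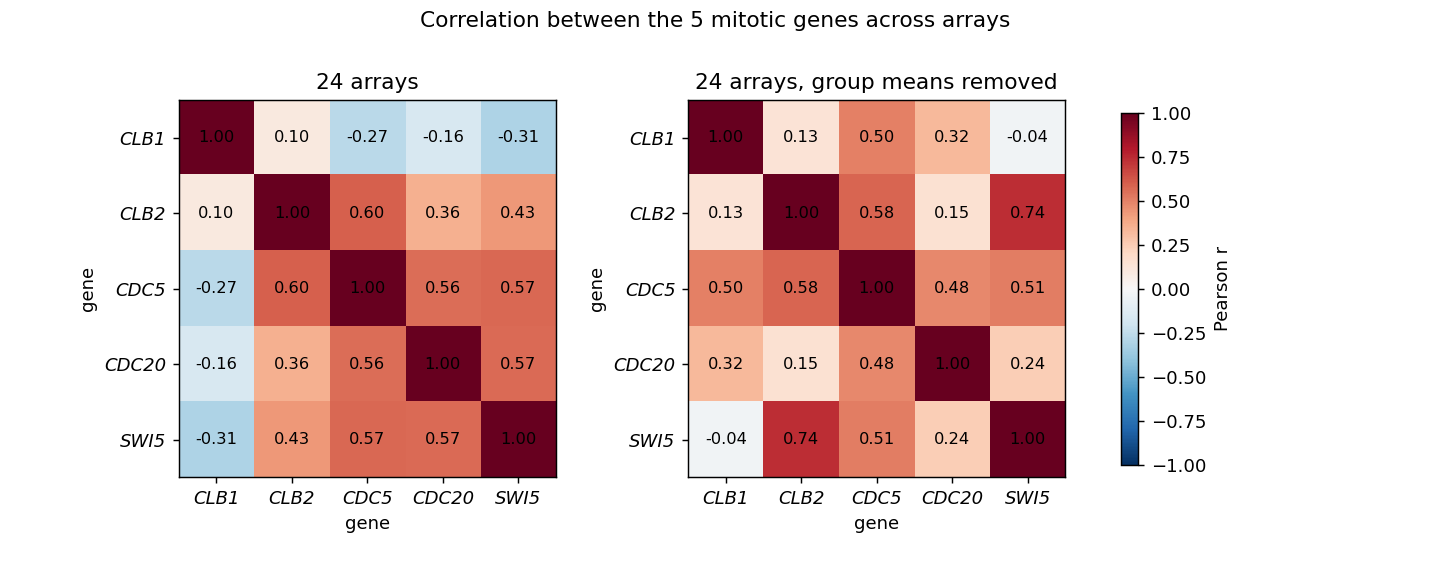
Pearson r between each pair of the 5 genes over 24 arrays, on normalized log2 values (left) and after the mean of each of the 8 groups was subtracted (right), on a colour scale from -1 to 1. On the left the row of CLB1 runs from -0.31 to 0.10 against the other 4 genes, whose own pairs run from 0.36 to 0.60.

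Among all genes outside the 5, those with the pattern most like the mean of the 5, by Pearson r over the 24 arrays, were SYF2, a splicing factor gene (0.78), ERG1, the squalene epoxidase gene (0.76), and ERG11, the lanosterol demethylase gene (0.75). HMG1 (0.74), RAX2 (0.73), BDF1 (0.73), PUN1 (0.72), EXG1 (0.71), MOT3 (0.71) and MCM7 (0.70) followed. The most opposite were INA22 (-0.73), TOM5 (-0.71), GVP36 (-0.71), COX11 (-0.71) and NGL3 (-0.70). CLB1 itself reached 0.25 with that mean, against 0.65 to 0.79 for the other 4 genes. That mean contains each of the 5 genes, which raises their own r with it, so these values are not evidence of likeness.

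Gene by gene the nearest patterns differed, except that ENT5 was the nearest to both CDC20 and SWI5. CLB1 was closest to SRX1, the sulfiredoxin gene (0.88), MET6, the methionine synthase gene (0.80), and YHR007C-A (0.80). CDC5 was closest to SHQ1, a gene for the assembly of small nucleolar ribonucleoproteins (0.93), YML082W (0.93) and VTS1 (0.93). CLB2 was closest to YOX1, a repressor gene (0.73), MCM7, a replicative helicase gene (0.71), and RAX2 (0.71). ENT5 and HOF1, the latter a gene of cytokinesis, were close to both CDC20 (0.72 and 0.72) and SWI5 (0.86 and 0.73), with OPI1 (0.71) next for CDC20 and NTE1 (0.74) for SWI5.

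Genes that act with the 5 were read from lists, and their calls stand beside those of all genes. In YSS37 at 60 min 21.1% of all genes were called higher and 20.5% lower, in YSS89 23.9% and 19.8%, in the difference of responses 5.45% and 8.42% and in the strain difference at time 0 17.8% and 10.2%. The medians over all genes were 0.010, 0.075, 0.028 and 0.043. Of the transcription factors of the cluster, 1 of 4 rose at 60 min in each strain. FKH1, a forkhead gene, rose to 60 min in YSS37 by 0.64 (adjusted p = 8.86e-05) and in YSS89 by 0.50 (adjusted p = 0.000889). FKH2, the forkhead partner of Mcm1, rose in YSS89 by 1.04 at 30 min (adjusted p = 0.000166) and was 0.45 higher at 60 min (adjusted p = 0.0593), and in YSS37 it was 0.47 higher at 60 min (adjusted p = 0.0518). With the round as a block the value of FKH2 at 30 min was 0.76 and did not pass (adjusted p = 0.0569). NDD1, the activator recruited by Fkh2, was called in none of the 15 contrasts. MCM1 was not called at 60 min in either strain (0.33 in YSS37, adjusted p = 0.0791, and -0.01 in YSS89, adjusted p = 0.964). In YSS89 it was lower at 20 min (-0.43, adjusted p = 0.044) and rose from 20 to 30 min (0.52, adjusted p = 0.0157). At 30 min MCM1 was higher in YSS89 than in YSS37 (0.43, adjusted p = 0.023). The calls at 20 min and between the strains ended with median centring (adjusted p = 0.0831 and 0.1004) and with the round as a block (0.410 and 0.432). For none of the 4 was the difference of responses at 60 min called (-0.34 to 0.22).

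Of the other genes of the CLB2 cluster 18 of 25 were not called in YSS37 at 60 min and 23 of 25 in YSS89, beside 3302 and 3184 of all 5656 genes. Of 26 listed 25 were measured, and in YSS37 at 60 min, 4 rose and 3 fell, with a median of 0.017 beside 0.010 for all genes. If arrays were centred on their medians, the median was -0.059. SFG1, a gene of cell growth form (1.24), RAX2, a bud site gene (0.87), and AIM20 (0.76) were among the rises, and NCE102 (-0.69), DBF2, a kinase gene of mitotic exit (-0.64), and SRC1 (-0.59) fell. In YSS89 at 60 min, 0 rose and 2 fell, NCE102 (-1.13) and NUM1, a gene of nuclear migration (-0.68), with a median of -0.034 beside 0.075 for all genes. The difference of responses was called for 4, all lower, with a median of -0.24 beside 0.028, SFG1 (-1.84), RAX2 (-0.91) and NUM1 (-0.45) among them. Without the fourth-round arrays 0 of the 25 were called there, and the median was -0.39, and with the round as a block 1 was. At time 0, 5 of the 25 were higher in YSS89, among them RAX2 (0.62), ALK1 (0.57) and BUD4 (0.44), and 0 lower, with a median of 0.23 beside 0.043. A block for the round left 0 of the 25 called at time 0 (RAX2, adjusted p = 0.332, ALK1, 0.621, BUD4, 0.331). Without the fourth-round arrays 1 was, and RAX2 (adjusted p = 0.0651) and ALK1 (adjusted p = 0.0863) were not. Values as deposited gave 13 higher, and median centring 1 higher and 1 lower.

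Several other cyclin genes of Cdk1 rose in YSS37. In the list of Cdk1, its other B-type cyclins and the control of Swe1, 6 of 10 rose in YSS37 at 60 min and 0 fell, with a median of 0.65, beside 21.1% of all genes called higher, 20.5% lower and a median of 0.010. The S-phase cyclin genes CLB6 (1.60) and CLB5 (0.89) and the mitotic cyclin gene CLB4 (0.75) led the list. In YSS89 at 60 min 1 rose, CLB4 (0.59), and 1 fell, the kinase gene CDC28 (-0.57), with a median of 0.23. The difference of responses was lower for 2, CLB6 (-1.86) and CLB5 (-0.69), and CLB5 was not called there without the fourth-round arrays (-0.41, adjusted p = 0.317). At time 0 CLB6 (1.01), CKS1 (0.43) and CLB5 (0.39) were higher in YSS89. With the round as a block none of them passed (adjusted p = 0.428, 0.629 and 0.888). CKS1 (0.45, adjusted p = 0.255) and CLB5 (0.11, adjusted p = 0.756) were not called without the fourth-round arrays, nor with median centring (adjusted p = 0.314 and 0.0742). Values as deposited gave 6 of the 10 higher.

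Most genes for partners of Cdc20 were not called at 60 min. In the list of the anaphase-promoting complex 11 of 15 were not called in YSS37 and 12 of 15 in YSS89. Over all 5656 genes these numbers were 3302 and 3184. Of 15 genes for the anaphase-promoting complex and its activators, 1 rose in YSS37 at 60 min, CDC26 (0.70), and 3 fell, DOC1 (-0.96), MND2 (-0.85) and APC9 (-0.61), and the list had a median of -0.0089 (0.060 for the values as deposited), beside 21.1% of all genes called higher and 20.5% lower. In YSS89 CDC27 (0.64) and CDC26 (0.50) rose and APC9 fell (-0.39), with a median of 0.13, beside 23.9% and 19.8% of all genes. Both rises ended with the round as a block (adjusted p = 0.1004 for CDC27 and 0.0626 for CDC26). Of 7 genes of the spindle assembly checkpoint, which holds Cdc20 inactive, IPL1 (0.62) and MAD1 (0.61) rose in YSS37 and 0 were called in YSS89. The medians were 0.42 and 0.14. The call of MAD1 ended in the fit without the fourth-round arrays (adjusted p = 0.0567) and with the round as a block (0.0855), which also ended that of IPL1 (0.0542).

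Of 16 genes for securin, separase and the mitotic exit network 4 rose and 2 fell in YSS37, and 4 rose and 0 fell in YSS89, with medians of 0.21 and 0.21. In YSS37 LTE1 (0.70), the securin gene PDS1 (0.64) and the phosphatase gene CDC14 (0.40) rose, and SPO12 (-0.64) and DBF2 (-0.64), which is also in the CLB2 cluster list, fell. In YSS89 CDC14 (0.75), the separase gene ESP1 (0.50) and CDC55 (0.47) rose. The call of LTE1 ended without the fourth-round arrays (adjusted p = 0.0537) and with the round as a block (0.46, adjusted p = 0.243), which also ended that of PDS1 (adjusted p = 0.0504). In YSS89 the calls of ESP1 and CDC55 ended in both of these fits (adjusted p = 0.0754 to 0.242). With the fourth-round arrays left out 1 of the 16 was called in YSS89, and the median was -0.013.

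Genes that act after Swi5, in the M/G1 interval, included 6 that fell in YSS89, where SWI5 itself stood at 0.02. At 60 min 0 of these 13 rose and 6 fell there, with a median of -0.41, led by ASH1, a repressor gene of daughter cells (-1.41), RME1 (-1.34) and AMN1 (-0.96). In YSS37 4 rose, among them CDC6, a gene of replication origins (1.48), PCL2 (1.02) and DSE2 (0.45), and 1 fell, RME1 (-0.57), and the list had a median of 0.063 (-0.037 if arrays were centred on their medians). The difference of responses was lower for 7 and higher for 0, with a median of -0.54, and CDC6 (-1.89), AMN1 (-1.53) and ASH1 (-1.32) were the lowest called. Leaving out the fourth-round arrays left 4 of the 13 called lower in YSS89 (median -0.34) and 3 of the 13 in the difference of responses (median -0.57). AMN1 then passed in neither (-0.34, adjusted p = 0.371, and -0.91, adjusted p = 0.125), nor did it with the round as a block (adjusted p = 0.505 and 0.228). That block left 4 and 3 of the 13 called lower.

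Genes of G1/S, the stage before the mitotic genes are made, gave the most calls of the lists in YSS37. At 60 min 23 of 25 rose and 0 fell, with a median of 0.82, led by PCL1 (1.64), CLB6 (1.60), which is also in the cyclin list, and YOX1 (1.51). In YSS89 2 rose, POL30 (0.60) and RFA1 (0.45), and 4 fell, among them CLN1 (-0.86), YOX1 (-0.53) and CLN2 (-0.45), and the list had a median of 0.082 (-0.021 for the values as deposited). The difference of responses was lower for 14 and higher for 0, with a median of -0.74, YOX1 (-2.04) and PCL1 (-1.97) the lowest. When the fourth-round arrays were left out, 9 of the 25 differed in response, with a median of -0.67, and 0 fell in YSS89. POL30 and RFA1 were called in YSS89 neither with values as deposited (adjusted p = 0.0966 and 0.0856), nor with the round as a block (0.313 and 0.301), nor without the fourth-round arrays (0.133 and 0.155). The block left 0 that fell in YSS89 and 9 that differed in response. At time 0, 9 of 25 were higher in YSS89, YOX1 (1.12), CLB6 (1.01) and SPT21 (0.93) among them, with a median of 0.27. A block for the round left 0 of the 25 called at time 0 (YOX1, adjusted p = 0.196, CLB6, 0.428, SPT21, 0.299), and without the fourth-round arrays 4 were. Values as deposited gave 15 and median centring 6. The histone list had 3 of 9 genes measured, and HTB2 rose in YSS37 (0.81) and HHO1 fell in YSS89 (-0.71), a call that ended with the round as a block (adjusted p = 0.0534).

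Other calls of genes named from the lists depended on the scaling or the round. For the values as deposited SRC1 (-0.41, adjusted p = 0.0533) and MND2 (-0.59, adjusted p = 0.0546) did not pass in YSS37, nor did CDC26 in YSS89 (0.40, adjusted p = 0.0581). When arrays were centred on their medians, DSE2 (0.23, adjusted p = 0.168) and HTB2 (0.50, adjusted p = 0.148) did not pass in YSS37, nor did CDC14 (0.28, adjusted p = 0.0598). YOX1 did not pass in YSS89 (-0.48, adjusted p = 0.0578), and NUM1 did not in the difference of responses (-0.16, adjusted p = 0.444). At time 0 this centring also ended the calls of BUD4 (0.29, adjusted p = 0.172) and ALK1 (0.49, adjusted p = 0.0547). With the round as a block SRC1 did not pass in YSS37 (adjusted p = 0.0823), nor RAX2 (0.0908), NUM1 (0.146) and CLB5 (0.397) in the difference of responses.

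**Figure D4:**
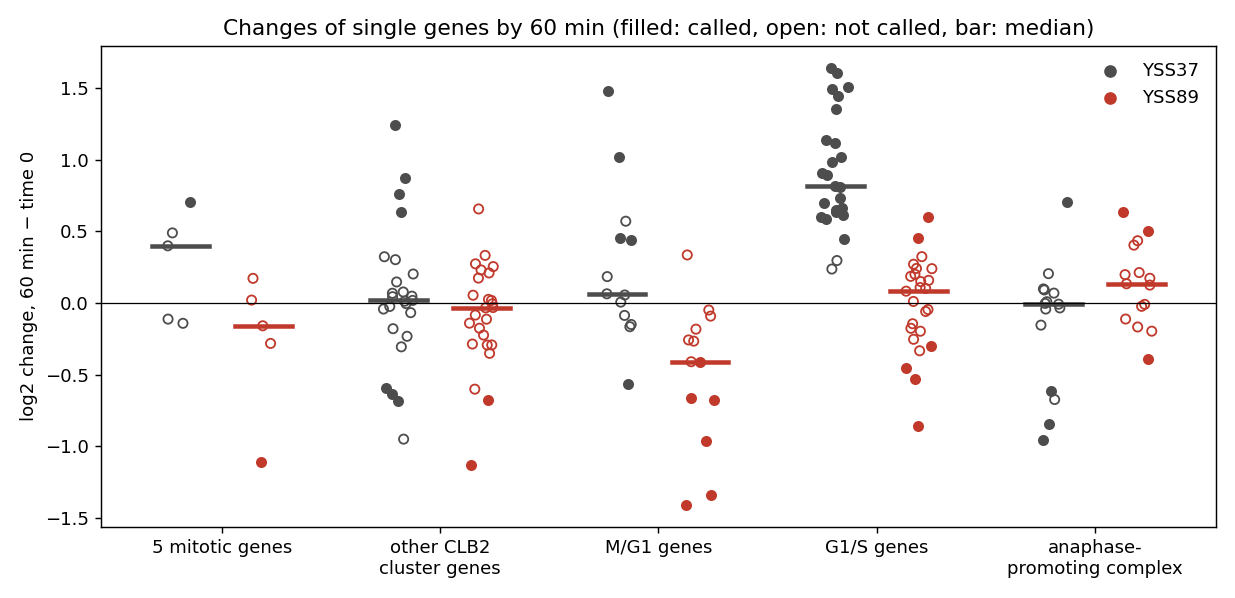
Log2 change from time 0 to 60 min (y axis) of each gene of 5 lists in YSS37 (grey) and YSS89 (red), filled where the adjusted p was under 0.05, with bars for list medians. The G1/S genes of YSS37 sit at a median of 0.82, and the 5 mitotic genes spread from -0.14 to 0.71 in YSS37 and from -1.11 to 0.17 in YSS89.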

How the data were processed

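Total RNA was labelled by in vitro transcription and hybridized to Affymetrix YG_S98 arrays, per the labels' protocols. The deposited intensities, 1 for each probe set, are linear, and the 2% trimmed mean is 100.1 on every array, so the authors' values had been scaled. The summary method is not given in the sources used here, nor is whether a signal was detected. Hybridization rounds and chip lots were read from the instrument files, per the file headers. There were 0 columns without a sample.

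The deposited intensities were turned into log2 values with a pseudocount of 1.4, the 10th percentile, which understates changes of dim genes. Array medians of these log2 values ran from 4.72 to 5.15, so the arrays were quantile normalized. Control probe sets (60), those naming several genes (328) and those naming none (2443) were left out, and the brightest probe set of each of 5656 genes was used. Names came from the platform annotation, matched to RefSeq by gene ID for all 6504 probe sets naming 1 gene. Coordinates are not given, since the files name no genome build. Whether the probes of CLB1 and CLB2, related genes, cross-hybridize was not tested.

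The 8 group means were fitted over 24 arrays in limma 3.58.1 (R 4.3.3), and 15 contrasts were tested with Benjamini-Hochberg adjustment over all genes. The fit was tested on simulated data. Median standard errors were 0.17 for changes and strain differences and 0.24 for differences of responses, and arrays correlated within groups at 0.968 to 0.991. Replicate a is the unlettered title of each group. Same-lettered arrays deviated together at r of -0.24 to 0.33 (84 pairs, median 0.02), and letters were not taken as pairs. The 84 pairs mix arrays within and across strains, so whether letters pair the arrays of 1 strain was not tested. Array number limits the precision.

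The 5 genes and the gene lists were chosen with earlier results of these data known. Beside the 5 genes, IFH1 and the 4 transcription factors, a list's named genes are up to 3 called members with the highest and up to 3 with the lowest value in the changes to 60 min, their difference and the strain difference at time 0, of which some are left out. Alternatives were other normalizations, pseudocounts, filters, probe set rules, priors, blocks and each array left out. The fit without the fourth-round arrays was chosen after seeing the data.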

Additional observations from a re-analysis of the deposited data

Results flagged for a closer look

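The change of CLB1 from time 0 to 60 min differed between the strains by -1.51 on the log2 scale (YSS89 minus YSS37, adjusted p = 0.00159 by limma), a tested difference between the groups under the same contrast. The mean intensity of CLB1 went from 37.7 ± 14.1 to 52.9 ± 7.23 (SD, n = 3) in YSS37 and from 49.4 ± 11 to 19.8 ± 2.64 in YSS89. No group held more than 3 arrays, too few to test for outlying arrays.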

How the results depend on the processing

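Under 38 other settings 1481 of 1560 values of the 5 genes kept their side of the threshold, 39 newly passed it and 40 no longer did. Among the 1481 were 60 that turned their sign, called neither in the main fit nor in the other. No called value turned its sign. The change of CLB1 in YSS89 from time 0 to 60 min, its strain difference at 60 min and the change of CDC5 in YSS37 from time 0 to 60 min passed in all 20 other settings run for each, and the CLB1 difference of responses at 60 min in all 26. The CLB1 step from 40 to 60 min passed in 14 of 20. The counts below are of the 5 genes called. The replicate block by strain and letter gave 1 for the strain difference at time 0, against 2. The replicate letters were not taken as pairs, and this block sets the strains against each other at replicate a. Its strain differences are thus another quantity, 0.42 for CDC20 at time 0 against 0.52. The block by letter moved no count. Fitting the groups of a contrast alone gave 0 for YSS89 at 30 min and 0 for the strain difference at time 0. Values as deposited gave 1 for YSS37 at 30 min, 3 for YSS37 at 60 min, 1 for YSS89 at 20 min, 0 for YSS89 at 40 min, 2 for the response difference at 30 min and 3 at 60 min. Median centring gave 1 for YSS37 at 30 min, 0 for YSS89 at 40 min and 1 for the strain difference at time 0. A pseudocount of 6.2 gave 2 for YSS89 at 30 min. Leaving out the dimmest 25% of genes gave 2 for YSS37 at 30 min, 2 for YSS37 at 60 min and 2 for YSS89 at 30 min. The trended and robust prior gave 1 for YSS37 at 30 min and 2 for YSS89 at 30 min. Array weights gave 1 for YSS37 at 30 min, 2 for YSS37 at 60 min, 2 for YSS89 at 30 min, 2 for the strain difference at 60 min, 1 for the response difference at 30 min, 2 for it at 60 min and 1 for the step from 20 to 30 min. The round as a block gave 0 for YSS89 at 40 min and 0 for the strain differences at time 0 and at 30 min. Without the fourth-round arrays the counts were 2 for YSS37 at 60 min, 0 for YSS89 at 40 min and 1 for the strain difference at time 0.

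With 1 array left out, the counts ran from 0 to 2 for YSS37 at 30 min, 1 to 3 for YSS37 at 60 min, 0 to 1 for YSS89 at 30 min, 0 to 2 for YSS89 at 40 min, 1 to 3 for the strain differences at time 0 and at 30 min, 0 to 1 for the response difference at 30 min and 1 to 2 at 60 min, and were 0 throughout for the step from 40 to 60 min. The highest counts in YSS37, in the strain difference at time 0 and in the response differences came without replicate a of YSS37 at time 0. Except where fewer arrays or genes entered a fit, the cause was not tested. Over all genes the round as a block moved 9 of 15 counts of calls by over 1.5 times, among them the strain difference at time 0 from 1579 to 31 and the response difference at 60 min from 784 to 208. The fit of a contrast's groups alone moved 6, array weights 3, the fit without the fourth-round arrays 4 and the block by strain and letter 1, and 18 counts moved with 1 array left out. The share of higher calls moved by over 10 points with values as deposited for YSS89 at 20 min (291 higher and 889 lower against 430 and 586) and at 30 min (834 and 1587 against 1269 and 1332) and for the response difference at 30 min (222 and 884 against 380 and 622). It also moved with median centring for YSS37 at 30 min (673 and 1049 against 816 and 703), YSS89 at 20 min (600 and 420) and the response difference at 30 min (598 and 388). Scaling shifted the median over all genes by over 0.1, most in the strain difference at time 0, where it moved by 0.17 with values as deposited and by -0.20 with median centring.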
